A study of Homo sapiens with 12 samples.

Results

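A549/DDP cells carrying a short hairpin RNA against NRF2 (shNRF2) were compared with A549/DDP cells carrying a control hairpin (shNC), both given DMSO, the solvent control. The comparison uses 6 of the 12 libraries of the series, 3 in each group. It covers every gene that passed a count filter in those 6 libraries, which was 14624 of the 61510 genes in the deposited count table. A549/DDP is a cisplatin-resistant derivative of A549, a human lung adenocarcinoma line. Both lines were kept in medium with 1 µg/ml cisplatin (DDP), so the control cells lived with that drug too. They were at 70% confluence when DMSO was added and were collected after 24 h for sequencing of total RNA. The other 6 libraries are the same pair of lines given 4 µM gambogenic acid (GNA), a plant xanthone, for 24 h, and they supply a separate measurement of the difference between the lines. The series title places NRF2, HSF1 (the heat shock factor) and heme oxygenase 1 in one pathway behind the action of GNA. The labels name a single NRF2 hairpin and a single control hairpin and do not say whether each line is a clone or a pool. A change made by loss of NRF2 and any other difference between the lines therefore cannot be told apart. Nothing in the labels ties the 3 libraries of a group to separate cultures. The p-values then reflect only how far these libraries scatter, and that scatter may be technical.

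NRF2, encoded by NFE2L2, is a transcription factor that cells under oxidative or electrophilic stress use to raise detoxifying, glutathione, thioredoxin and iron-storage genes. Its partner KEAP1 holds it in the cytoplasm and hands it to a ubiquitin ligase for destruction; freed NRF2 pairs with a small MAF protein and binds antioxidant response elements near its targets. A549 cells are known for a defective KEAP1, which leaves NRF2 constantly active, and they lack the tumour suppressor gene CDKN2A.

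Levels are CPM (counts scaled to a common library total after TMM adjustment), given for libraries 1, 2 and 3 of each group in that order. Changes are log2 fold changes of shNRF2 over shNC ± SE. A gene is called higher or lower, or said to have risen or fallen, at an adjusted p under 0.05 in edgeR's quasi-likelihood test. Of the 14624 tested genes 2668 (18.2%) were called higher in shNRF2 and 2825 (19.3%) lower, and 360 and 336 of these changed at least 2-fold. The 18.2% and 19.3% are the shares to set beside the counts of each list below. The libraries of both groups did not overlap in either direction for 6579 genes (45.0%). With library totals in place of TMM scaling the calls became 3228 higher and 2256 lower, since that choice moved the median of all genes from 0.01 to 0.061. With limma on log2(FPKM + 0.1) they were 2973 and 2145, and on log2(FPKM + 1) 2934 and 2120.

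The 6 libraries held 13158101 to 17192671 counts, with 99.8% of them in tested genes in each library. The first principal component of the 6 libraries took 56.4% of the variance and separated the lines. The second took 12.1%, and on it library shNC 1 and library shNRF2 3 each lay apart from the others of their group. Divided by its degrees of freedom, the chi-square of shNC 1 was 8.12 to shNC 2 and 6.36 to shNC 3, while shNC 2 and shNC 3 gave 3.76. That of shNRF2 3 was 5.34 to shNRF2 1 and 3.58 to shNRF2 2, while shNRF2 1 and shNRF2 2 gave 2.85. CDKN2A had at most 1 count in any of the 6 libraries. Of 6 epithelial markers 5 passed the filter, 1 of them called higher and 1 lower in shNRF2, and 1 of the 6 averaged under 1 CPM. The keratin gene KRT8 stood at 12610, 12470 and 13250 CPM in shNC and 12260, 12220 and 12520 CPM in shNRF2. KRT18 stood at 3011, 3051 and 3172 CPM in shNC and 2935, 3098 and 3273 CPM in shNRF2, and both levels are high, as in an epithelial line. Summed endothelial markers (PECAM1, VWF and 4 others) came to 0.306 to 0.919 CPM and summed leukocyte markers to 1.30 to 4.07 CPM. Of 9 alveolar type 2 markers 2 passed the filter, ABCA3 and LAMP3, and neither was called. Their list summed to 17.02 to 22.9 CPM in shNC and 20.8 to 24.6 CPM in shNRF2, most of it ABCA3, while SFTPC and NKX2-1 had at most 2 counts in a library. Fibroblast markers summed to 7.42 to 9.94 CPM, with ranges that overlapped between the groups. In the leukocyte list 1 of 8 members passed the filter, ITGAM, which fell from a mean of 2.83 to 0.707 CPM, while PTPRC and CD3E were at or near 0 in both groups.

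NFE2L2 itself, on chromosome 2 at 177230303 to 177264727 (RefSeq positions on GRCh38), was 64.5% of control. Its levels were 81.4, 77.4 and 74.0 CPM in shNC and 47.8, 49.3 and 53.1 CPM in shNRF2, and the groups did not overlap. The log2 fold change was -0.63 ± 0.064 (95% interval -0.78 to -0.49, edgeR adjusted p = 1.6e-08). In bulk RNA, a lower level in every cell and a loss confined to a share of the cells cannot be told apart. KEAP1, on chromosome 19 at 10486125 to 10503356, was 65.6% of control at 27.0, 25.4 and 26.9 CPM in shNC and 18.5, 17.9 and 15.5 CPM in shNRF2 (-0.61 ± 0.088, edgeR adjusted p = 4.6e-06). The control hairpin line thus had more mRNA of both the factor and its inhibitor.

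Among 20 regulators and partners of NRF2, 5 rose and 6 fell, with a median of -0.057. The largest fall was in SQSTM1, which encodes p62, an autophagy receptor that takes KEAP1 away from NRF2 and is itself an NRF2 target. SQSTM1 measured 688, 759.8 and 735 CPM in shNC and 312, 293 and 305 CPM in shNRF2, a change of -1.26 ± 0.046. MAFG, a small MAF partner, fell by 0.51 on the log2 scale, from 50.8 ± 0.782 CPM in shNC to 35.7 ± 2.88 CPM in shNRF2, while its relative MAFK rose by 0.25. NFE2L1, which encodes the related factor NRF1, rose by 0.20, from 427 ± 17.7 CPM in shNC to 489.6 ± 16.5 CPM in shNRF2. MAFG and MAFK, of the same family, thus moved in opposite directions. The counts of this list stand beside 18.2% higher and 19.3% lower over all tested genes.

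Of 66 genes in 7 lists of NRF2 targets, all of them tested, 49 fell and 5 rose. The remaining 12 were not called. Their median log2 fold change was -0.56, against 0.01 over all tested genes, and 17 of the 49 fell at least 2-fold. The lists were chosen with earlier results of these data known.

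**Figure D1:**
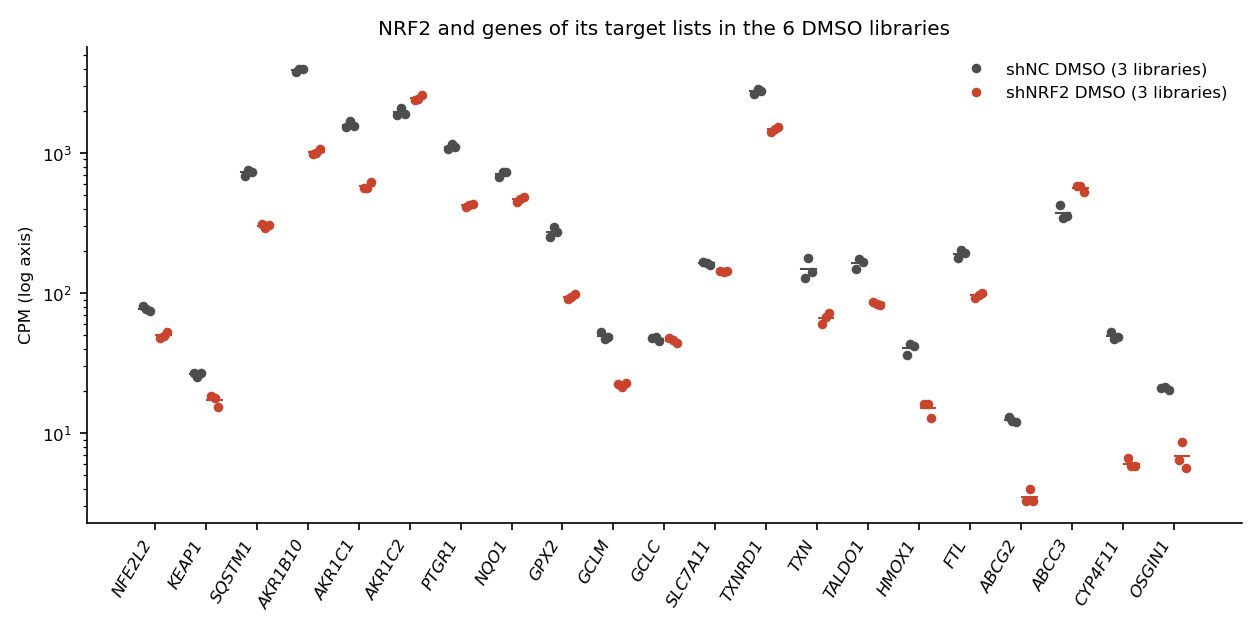
Level of NFE2L2, KEAP1, SQSTM1 and 18 genes of the NRF2 target lists in each of the 6 DMSO libraries, in CPM on a log axis. Each dot is a library and each short bar the mean of 3. For most genes the 3 shNRF2 libraries lie below the 3 shNC libraries without overlap; GCLC overlaps, and AKR1C2 and ABCC3 lie higher in shNRF2.

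The antioxidant response element reads TGACNNNGC, or GCNNNGTCA on the other strand, where N is any base. It was searched on both strands of the RefSeq promoter windows (GRCh38.p14, 250 bases before to 50 after each start site), in which 10721 of the 14624 tested genes had an entry. The element was present in 13.3% of all 35116 windows, 14.4% of windows of tested genes, 15.7% of windows of genes called lower and 12.0% of those called higher. In windows of genes that fell at least 2-fold the share was 13.6%, close to that over all windows. In the NRF2 target lists 30.9% of 68 windows, from 49 genes, held it. For the 37 of these genes that were called lower the share was the same, 30.9% of 55 windows. The element thus did not set the fallers apart within these lists. Among those 37 genes 16 held it. The 4 with the smallest adjusted p are printed with their 250 upstream bases, to place the element in genes that fell in this comparison. Capitals mark 1 element in each, and each run is read 5′ to 3′ on the gene's own strand. A match of letters is a description and not evidence of binding.
CYP4F11: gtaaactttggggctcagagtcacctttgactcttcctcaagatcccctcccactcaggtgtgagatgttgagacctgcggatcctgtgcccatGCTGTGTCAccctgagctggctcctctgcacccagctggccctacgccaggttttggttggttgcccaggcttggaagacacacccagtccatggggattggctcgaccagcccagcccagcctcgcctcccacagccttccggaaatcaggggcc
GPX2: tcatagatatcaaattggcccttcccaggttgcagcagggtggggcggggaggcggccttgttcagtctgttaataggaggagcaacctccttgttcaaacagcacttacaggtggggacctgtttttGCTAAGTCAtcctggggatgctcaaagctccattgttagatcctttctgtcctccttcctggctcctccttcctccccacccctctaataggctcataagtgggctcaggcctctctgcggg
TXNRD1: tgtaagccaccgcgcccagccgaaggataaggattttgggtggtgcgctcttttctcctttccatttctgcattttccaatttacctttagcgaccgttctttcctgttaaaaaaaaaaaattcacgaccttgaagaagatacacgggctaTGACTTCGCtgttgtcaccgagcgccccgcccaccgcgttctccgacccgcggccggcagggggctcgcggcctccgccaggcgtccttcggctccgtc
GCLM: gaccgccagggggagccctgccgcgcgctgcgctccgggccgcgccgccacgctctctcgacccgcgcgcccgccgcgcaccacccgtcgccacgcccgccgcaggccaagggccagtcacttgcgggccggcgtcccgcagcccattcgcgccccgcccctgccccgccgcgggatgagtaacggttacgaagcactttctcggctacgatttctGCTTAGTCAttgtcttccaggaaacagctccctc
The CYP4F11 window is chr19:15934868-15935117 on the minus strand, with the element starting 156 bases before the start site. For GPX2 it is chr14:64942746-64942995 on the minus strand, with the element 122 bases before the start. TXNRD1 is on the plus strand at chr12:104215529-104215778, with the element 99 bases before the start of this transcript. The letters of the element occur again in that window from 8 bases before the start site, a stretch that runs past the end of the printed bases and is left in lower case, and once in another TXNRD1 window. GCLM is on the minus strand at chr1:93909431-93909680, and its element begins 34 bases before the start. All 4 windows lie immediately upstream of an annotated transcript start.

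Enzymes that reduce quinones and carbonyls fell in 12 of 14 cases, and 1 rose (median -0.65). Their summed level lay between 18930 and 20690 CPM in shNC and between 12530 and 13030 CPM in shNRF2. AKR1B10, an aldo-keto reductase that clears reactive aldehydes, measured 3782, 4000 and 3956 CPM in shNC and 982, 1001 and 1074 CPM in shNRF2. That is a fall of 3.84-fold (-1.94 ± 0.045, edgeR adjusted p = 1.2e-21), and the lowest shNC library was over the highest shNRF2 library by a wide margin. PTGR1, a reductase of leukotrienes and reactive alkenals, fell from 1110 ± 47.5 CPM in shNC to 422 ± 7.12 CPM in shNRF2 (-1.40 ± 0.044). NQO1, the quinone reductase often used to read NRF2 activity, was 678, 728 and 728 CPM in shNC and 447, 469 and 485 CPM in shNRF2 (-0.61 ± 0.047, edgeR adjusted p = 1.4e-10). AKR1B1, the aldose reductase, was 2053 ± 95.8 CPM in shNC and 1262 ± 36.6 CPM in shNRF2 (-0.70 ± 0.045).

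The AKR1C genes did not move together. AKR1C1 fell to 36.8% of control, at 1527, 1678 and 1554 CPM in shNC and 566, 567 and 618 CPM in shNRF2 (-1.44 ± 0.050). AKR1C3 fell by 0.45 on the log2 scale, but AKR1C2 rose, at 1860, 2083 and 1905 CPM in shNC and 2372, 2424 and 2580 CPM in shNRF2 (0.34 ± 0.046, edgeR adjusted p = 2.5e-06). These genes are closely related copies, not all to the same degree, that reads can be shared between. How the authors assigned such reads is not given in the sources used here. Summed over AKR1C1, AKR1C2 and AKR1C3 the level was 4521, 4989 and 4607 CPM in shNC and 3754, 3844 and 4093 CPM in shNRF2, so the sum was lower in each shNRF2 library.

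Of 12 glutathione genes 7 fell and 1 rose (median -0.43), and none rose without shNC replicate 1 or without shNRF2 replicate 3. GPX2, a glutathione peroxidase of epithelial cells, measured 250, 297 and 274 CPM in shNC and 90.9, 93.5 and 98.3 CPM in shNRF2 (-1.54 ± 0.058, edgeR adjusted p = 6.3e-17). GLRX, which removes glutathione from proteins, was 217 ± 13.4 CPM in shNC and 93.8 ± 2.76 CPM in shNRF2 (-1.21 ± 0.055). GSR, which regenerates reduced glutathione, fell by 0.96 on the log2 scale. The subunits of glutamate-cysteine ligase, the first step of glutathione synthesis, differed. The modifier subunit gene GCLM was 52.7, 47.4 and 48.9 CPM in shNC and 22.5, 21.4 and 22.9 CPM in shNRF2 (-1.15 ± 0.071, edgeR adjusted p = 1.3e-12), while the catalytic subunit gene GCLC was 47.6, 48.6 and 45.6 CPM in shNC and 47.7, 46.2 and 43.7 CPM in shNRF2 and its libraries overlapped (-0.042 ± 0.067, 95% interval -0.20 to 0.11, edgeR adjusted p = 0.66). SLC7A11, the cystine importer, fell by 0.18 on the log2 scale, from 163 ± 4.47 CPM in shNC to 144 ± 2.03 CPM in shNRF2 (edgeR adjusted p = 0.0039).

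In the thioredoxin and peroxiredoxin list 5 of 6 genes fell and 1 rose (median -0.75). TXNRD1, thioredoxin reductase, measured 2637, 2861 and 2791 CPM in shNC and 1405, 1481 and 1529 CPM in shNRF2 (-0.91 ± 0.043, edgeR adjusted p = 7.1e-15). Its substrate TXN measured 129, 177 and 142 CPM in shNC and 59.7, 67.2 and 72.5 CPM in shNRF2 (-1.17 ± 0.087). PRDX1, a thioredoxin-dependent peroxidase, fell by 0.59. SRXN1, which repairs oxidised peroxiredoxins, had only 2.23 to 4.27 CPM in shNC and 1.03 to 1.38 in shNRF2 (-1.44 ± 0.42). That call was lost without shNC replicate 2 (edgeR adjusted p = 0.055) and with limma on log2(FPKM + 1) (adjusted p = 0.13). The single riser was SESN2 (0.42 ± 0.077), a sestrin that is also raised by the integrated stress response.

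Of 6 enzymes that supply NADPH, 4 fell and none rose (median -0.35). TALDO1, transaldolase of the pentose phosphate pathway, was 148, 176 and 168 CPM in shNC and 86.4, 84.3 and 82.6 CPM in shNRF2 (-0.96 ± 0.058, edgeR adjusted p = 1.1e-12). ME1, cytosolic malic enzyme, was 78.3 ± 3.00 CPM in shNC and 44.6 ± 1.61 CPM in shNRF2 (-0.81 ± 0.059), and IDH1 fell by 0.52. PGD fell by 0.18. TKT was at -0.072 ± 0.043 and was not called (edgeR adjusted p = 0.2), though it was called with the length trend, described further on, removed (adjusted p = 0.0087).

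Heme and iron genes fell in 6 of 8 cases (median -0.25). HMOX1, heme oxygenase 1, on chromosome 22 at 35381096 to 35394207, measured 36.1, 43.1 and 42.1 CPM in shNC and 16.2, 16.3 and 12.9 CPM in shNRF2, 37.5% of control (-1.42 ± 0.089, edgeR adjusted p = 1.9e-12). The ferritin light chain gene FTL was 178, 203 and 192 CPM in shNC and 92.9, 96.9 and 99.4 CPM in shNRF2 (-0.99 ± 0.057), and BLVRB, which acts on biliverdin, was 82.2 ± 6.77 CPM in shNC and 44.6 ± 3.07 CPM in shNRF2 (-0.88 ± 0.069). FTH1, the ferritin heavy chain gene, changed less, at 551, 716 and 659 CPM in shNC and 540.2, 518 and 525 CPM in shNRF2, with library shNC 1 close to the shNRF2 libraries (-0.28 ± 0.069, edgeR adjusted p = 0.0021). Its call was lost with limma on FPKM (adjusted p = 0.065 and 0.066), under which 3 of the 8 genes fell. FTL and FTH1 have processed pseudogenes that can share reads.

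Efflux transporters were split, with 2 of 6 higher and 2 lower (median 0.045). ABCG2, a multidrug exporter, measured 13.1, 12.3 and 12.0 CPM in shNC and 3.27, 3.98 and 3.29 CPM in shNRF2 (-1.82 ± 0.14, edgeR adjusted p = 1.7e-10), and ABCC2 fell by 0.29. ABCC3 rose from 375 ± 43.6 CPM in shNC to 563 ± 30.2 CPM in shNRF2 (0.59 ± 0.059) and ABCC4 by 0.30. ABCC1, the best known NRF2-linked exporter of this family, was not called (0.049 ± 0.070, edgeR adjusted p = 0.63). Outside the NRF2 lists, ABCA12 was the 1 of 7 other ABC transporter genes that rose (0.86 ± 0.076), with 2 risers without shNC replicate 3. The 1 faller of that list was lost without shNC replicate 1 or 3, without shNRF2 replicate 1 or 2, with library totals, with limma on FPKM and with the compared groups alone.

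Of 14 other known targets 13 fell and none rose (median -0.74). CYP4F11, a fatty acid omega-hydroxylase, measured 53.1, 47.0 and 48.4 CPM in shNC and 6.61, 5.81 and 5.81 CPM in shNRF2, a fall of 8.10-fold (-3.02 ± 0.10, edgeR adjusted p = 3.5e-18). OSGIN1, an oxidative stress-induced growth inhibitor, was 21.2, 21.4 and 20.5 CPM in shNC and 6.48, 8.64 and 5.66 CPM in shNRF2 (-1.61 ± 0.11). TRIM16L fell by 1.07 and MAP1B, a microtubule-associated protein gene, by 0.63 on the log2 scale.

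The largest changes in the comparison were mostly in genes outside these lists. LINC02582, a long noncoding RNA, stood at 13.3, 14.0 and 12.7 CPM in shNC and 0.0641, 0.0764 and 0.229 CPM in shNRF2, or 1, 1 and 3 counts in the shNRF2 libraries (-6.70 ± 0.33). CES1, a carboxylesterase that hydrolyses drugs and esters, measured 20.0, 21.2 and 20.6 CPM in shNC and 0.513, 0.841 and 0.153 CPM in shNRF2 (-5.33 ± 0.26, edgeR adjusted p = 1.2e-14). MAP2, a neuronal microtubule-associated protein gene, measured 40.7, 42.6 and 40.8 CPM in shNC and 3.01, 2.68 and 2.45 CPM in shNRF2 (-3.92 ± 0.11). LINC02582 and CES1 were thus below 1 CPM in every shNRF2 library. HPD, a tyrosine breakdown enzyme, was 50.3, 56.2 and 55.1 CPM in shNC and 5.52, 7.19 and 6.12 CPM in shNRF2 (-3.11 ± 0.11), and KRT6A, a stress keratin, was 21.2, 19.8 and 17.7 CPM in shNC and 3.66, 1.91 and 3.98 CPM in shNRF2 (-2.61 ± 0.18). SLC5A11, GAS2, IGFN1, ANXA10 and PCSK5 were each at 5.45 to 9.65 CPM in shNC and at most 1.53 CPM in shNRF2, with log2 fold changes between -3.66 and -2.88. MYH14, a nonmuscle myosin heavy chain gene, was 21.7, 21.0 and 21.9 CPM in shNC and 4.68, 2.37 and 3.14 CPM in shNRF2 (-2.63 ± 0.14).

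The largest rises were smaller on the log2 scale than the largest falls. TNFSF15, a cytokine of the tumour necrosis factor family, measured 3.64, 3.17 and 2.23 CPM in shNC and 28.9, 26.2 and 26.8 CPM in shNRF2 (3.18 ± 0.16, edgeR adjusted p = 1.4e-14). TNC, which encodes the matrix glycoprotein tenascin C, was 0.275, 0.305 and 1.31 CPM in shNC and 7.18, 6.27 and 5.81 CPM in shNRF2 (3.34 ± 0.36), low in both groups. CHGB, a secretory granule protein, was 20.1, 18.2 and 19.6 CPM in shNC and 88.3, 81.3 and 83.1 CPM in shNRF2 (2.12 ± 0.080), and SUSD2, a membrane protein, was 8.52, 8.78 and 9.46 CPM in shNC and 45.7, 43.4 and 37.9 CPM in shNRF2 (2.25 ± 0.098). Absence of overlap between the 3 and 3 libraries was part of the rule that picked these genes, so it is no separate support. ITGA11, a collagen-binding integrin subunit, rose by 2.45, HHIP, an inhibitor of hedgehog ligands, by 2.43, and the transporter gene SLC6A14 by 2.15. BCAM, a laminin receptor, rose by 2.09 and ULBP1, a ligand of the natural killer cell receptor NKG2D, by 1.82. AKAP17A is set apart because its libraries scattered: it measured 20.5, 16.5 and 19.2 CPM in shNC and 23.8, 107 and 179.9 CPM in shNRF2, so library shNRF2 1 was near the controls, and its call (2.46 ± 0.59) was lost with limma on FPKM (adjusted p = 0.093 and 0.088).

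**Figure D2:**
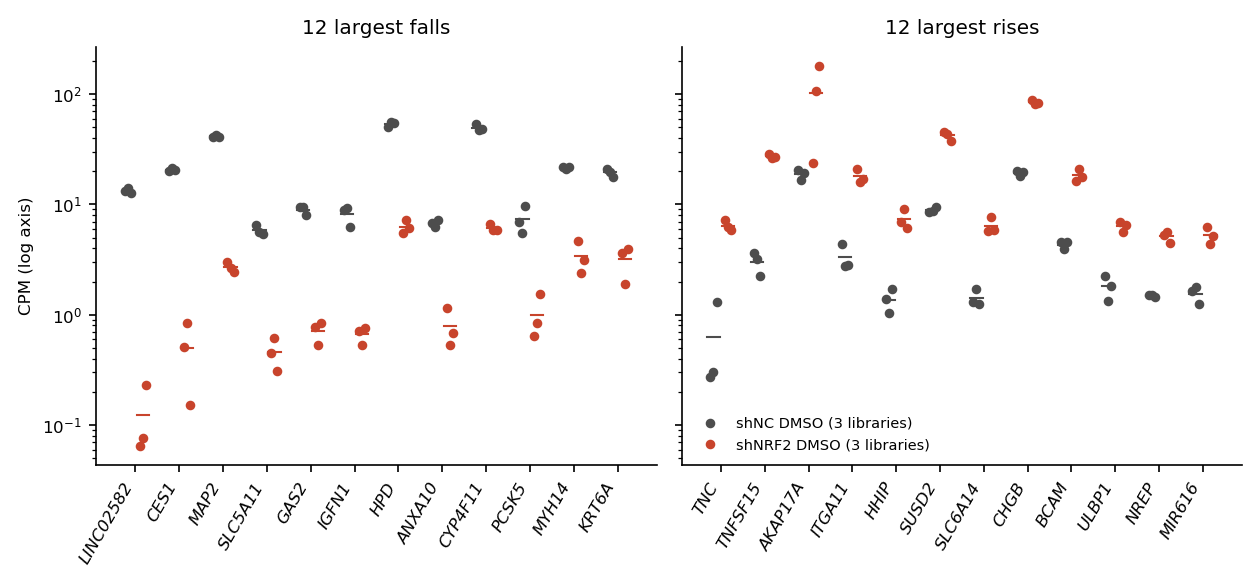
The 12 largest falls and the 12 largest rises in shNRF2, among called genes that reach 5 CPM in the higher group without overlap, in CPM on a log axis; each dot is a library and each bar the mean of 3. LINC02582 and CES1 lie below 1 CPM in all 3 shNRF2 libraries, and AKAP17A shows the widest scatter.

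Gene length moved with the direction of change and has to be read beside the lists of short or long genes. The deposited counts and FPKM values imply a length for each gene, and the tested genes were divided into 10 bins by it. The median log2 fold change rose from -0.11 in the shortest bin (up to 1696 bases) to 0.13 in the longest (12055 bases or more). The share of genes called higher went from 9.09% to 35.3% between these bins, and the share called lower from 20.6% to 12.8%. What set this trend was not tested. With the trend removed from each library, a choice added after the data were seen, 2400 genes were called higher and 2911 lower. Below, genes of like length are all tested genes between the lower and upper quartiles of the lengths in a list. That band is wide, with 8408 genes for the ER chaperone list and 6695 for the proteasome list, and is no gene-by-gene match.

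**Figure D3:**
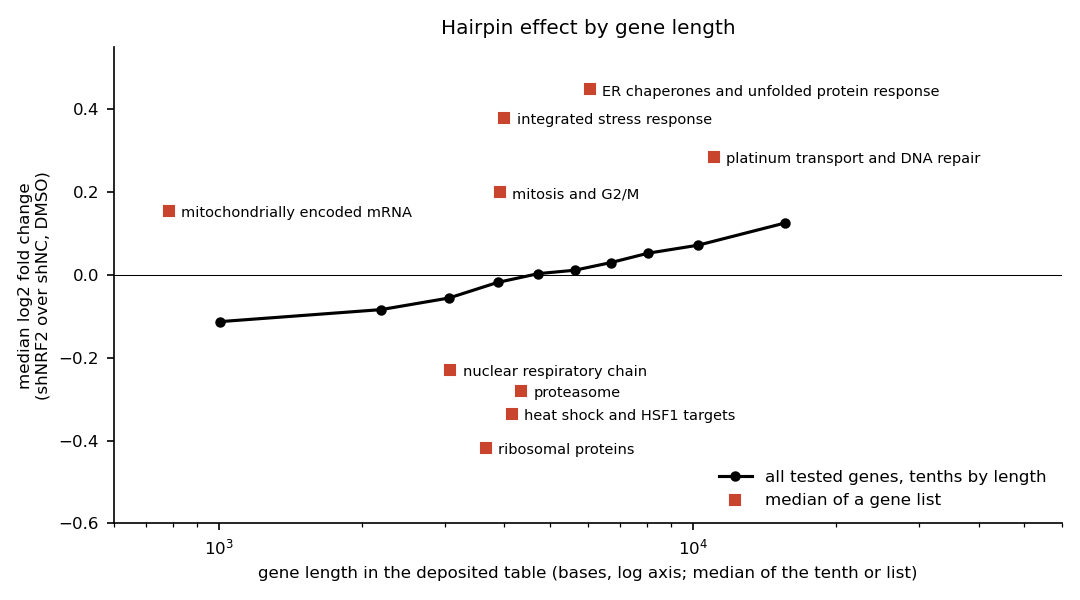
Median log2 fold change in 10 bins of tested genes by length (black, log axis in bases), and the medians of 9 gene lists at their median length (squares). Ribosomal protein, heat shock, proteasome and respiratory chain lists lie well below the line for all genes, and the ER chaperone, stress response, mitosis and repair lists above it.

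Heat shock genes fell in shNRF2 without GNA. In the list of heat shock factors, chaperones and HSF1 targets 21 of 28 tested genes fell and 1 rose (median -0.34), where all genes of like length had a median of -0.019. HSPA1A, the stress-inducible HSP70, measured 117, 111 and 109 CPM in shNC and 54.5, 58.7 and 61.4 CPM in shNRF2 (-0.95 ± 0.067, edgeR adjusted p = 2.5e-11). HSPA1B, its near-identical copy, was at 12.4 to 14.0 CPM in shNC and 6.80 to 8.08 in shNRF2. Reads of the pair can be exchanged, and their sum went from 125 ± 3.44 to 65.6 ± 2.87 CPM. HSPA8, the constitutive HSP70, was 2271, 2366 and 2290 CPM in shNC and 1565, 1629 and 1683 CPM in shNRF2 (-0.51 ± 0.042). DNAJA1, an HSP40 co-chaperone, fell by 0.55 and CHORDC1, an HSP90 co-chaperone, by 0.66 on the log2 scale. HSPB1 was the riser (0.19 ± 0.061, edgeR adjusted p = 0.017), a call lost without shNC replicate 1 and without shNRF2 replicate 1 or 3 (edgeR adjusted p = 0.12, 0.057 and 0.07). HSF1, the factor that drives these genes, measured 28.3, 25.4 and 29.9 CPM in shNC and 28.2, 22.9 and 19.9 CPM in shNRF2 and was not called (-0.23 ± 0.11, edgeR adjusted p = 0.1); it was called without shNRF2 replicate 1 (edgeR adjusted p = 0.01).

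Proteasome subunit genes fell in 25 of 30 cases and none rose (median -0.28, against -0.013 for genes of like length). The changes were small and even, with a range of -0.48 to 0.19. PSMA4, of the core particle, was 586, 666 and 635 CPM in shNC and 436, 438 and 479 CPM in shNRF2 (-0.48 ± 0.056, edgeR adjusted p = 1.5e-07), and PSMD11, of the regulatory lid, was 82.4, 85.3 and 88.6 CPM in shNC and 59.1, 64.1 and 61.7 CPM in shNRF2 (-0.47 ± 0.064). With the length trend removed 21 fell.

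Ribosomal protein genes fell in 29 of 30 cases (median -0.42, against -0.037 for genes of like length), and 28 fell with the length trend removed. RPL27 measured 1242, 1506 and 1322 CPM in shNC and 915, 968 and 996 CPM in shNRF2 (-0.50 ± 0.062). Each ribosomal protein gene has processed pseudogenes elsewhere in the genome, and reads shared with them make single values uncertain. Of 29 nuclear genes of the respiratory chain 16 fell and none rose (median -0.23, against -0.034 for genes of like length), though 1 rose without shNC replicate 2, without shNRF2 replicate 2, with library totals and with limma on FPKM. The fallers included COX4I1 (-0.44 ± 0.053) and NDUFA1 (-0.53 ± 0.088). The mitochondrially encoded mRNAs went the other way, with 6 of 13 higher and none lower (median 0.16). MT-ND5 measured 5106, 3921 and 4527 CPM in shNC and 7149, 6982 and 6274 CPM in shNRF2 (0.59 ± 0.068, edgeR adjusted p = 1.3e-07). Together these 13 took 5.98, 4.71 and 4.95% of counts in shNC and 6.21, 6.15 and 5.44% in shNRF2, so library shNC 1 lay within the range of shNRF2. The count of risers was 10 without shNC replicate 1, 3 without shNC replicate 2, and 11 with the length trend removed.

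**Figure D4:**
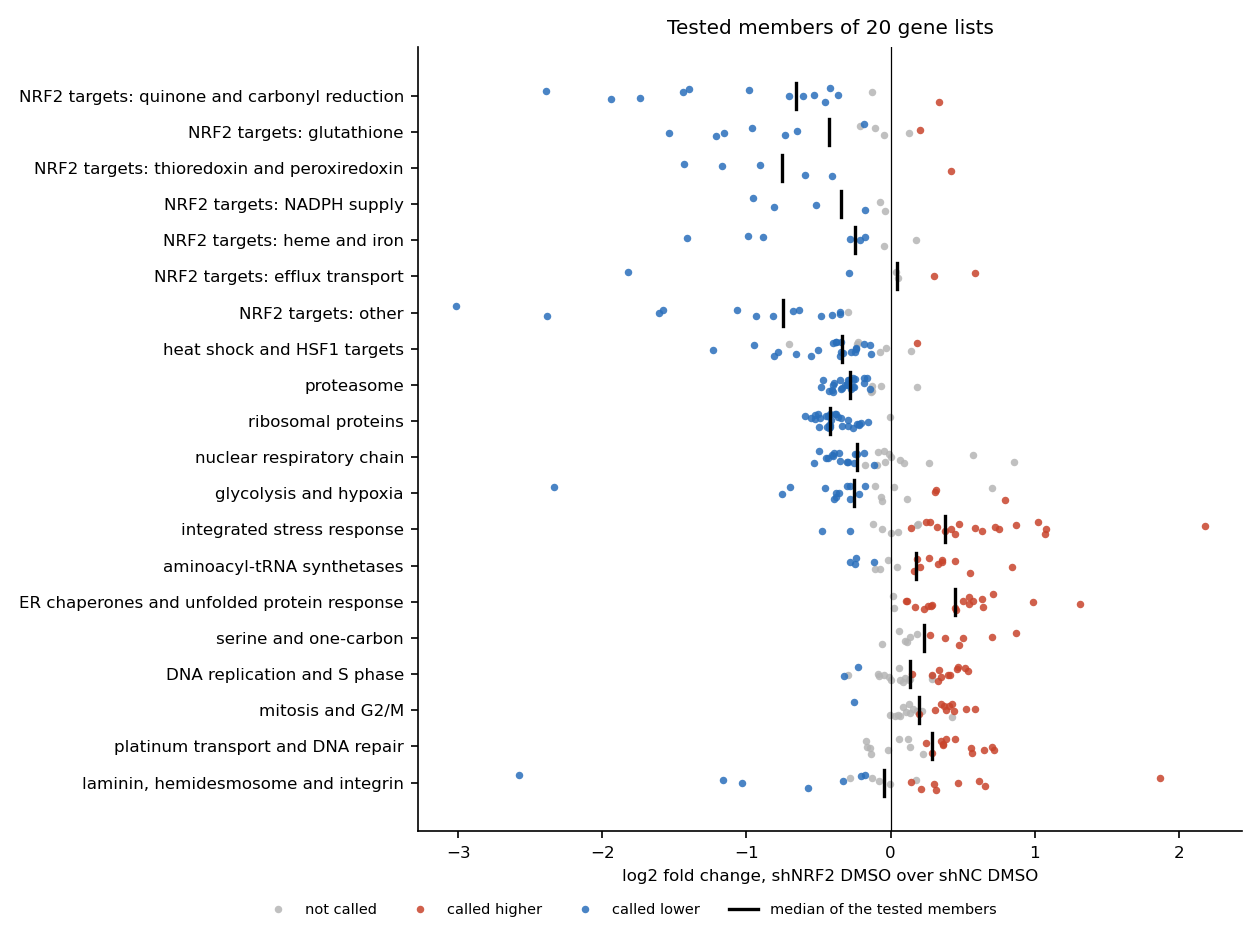
Log2 fold change of each tested member of 20 gene lists, shNRF2 over shNC in DMSO; each dot is a gene, coloured by its call, and each black bar the median of the list. The NRF2 target, heat shock, proteasome, ribosomal and respiratory lists lie to the left of 0, and the stress response, ER, serine, replication, mitosis and repair lists to the right.

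The integrated stress response, which ATF4 runs when translation is restrained, had 17 of 25 genes higher and 2 lower (median 0.38). NUPR1, a stress-induced chromatin protein, measured 16.6, 16.2 and 17.3 CPM in shNC and 32.6, 36.9 and 36.5 CPM in shNRF2 (1.08 ± 0.074, edgeR adjusted p = 1.3e-11). PCK2, the mitochondrial PEPCK, was 9.97, 9.03 and 8.86 CPM in shNC and 18.3, 20.3 and 18.1 CPM in shNRF2 (1.02 ± 0.11). PHGDH, the first enzyme of serine synthesis, was 51.9, 52.4 and 59.7 CPM in shNC and 96.9, 102 and 101 CPM in shNRF2 (0.87 ± 0.059). DDIT4, which restrains mTORC1, rose by 0.63. ATF4 mRNA itself rose slightly (0.14 ± 0.042, edgeR adjusted p = 0.0099). The fallers were the transcription factor genes ATF3 (-0.28 ± 0.061) and ATF5 (-0.48 ± 0.13), against the direction of ATF4 and of the enzymes named here.

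Serine and one-carbon enzymes rose in 7 of 12 cases and none fell (median 0.23). Besides PHGDH these included PSAT1 (0.48 ± 0.055), the next step of serine synthesis, and ALDH1L2 (0.71 ± 0.059), a mitochondrial folate enzyme. Aminoacyl-tRNA synthetases, which charge tRNAs, rose in 10 of 18 cases and fell in 4 (median 0.18, against 0.031 for genes of like length). With the length trend removed 9 rose and 3 fell (median 0.099). AARS1 measured 169, 175 and 188 CPM in shNC and 320.2, 324 and 310.4 CPM in shNRF2 (0.84 ± 0.048, edgeR adjusted p = 3.4e-13), and MARS1 rose by 0.55. PHGDH and PSAT1 stand in both the stress response and the serine lists, so these lists are not separate evidence.

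ER chaperone and unfolded protein response genes had the largest share of risers among the 40 lists, with 18 of 20 higher and none lower (median 0.45, against 0.019 for genes of like length). HERPUD1, which recruits ubiquitin ligase to the ER membrane, measured 26.7, 27.1 and 30.7 CPM in shNC and 71.9, 68.5 and 69.4 CPM in shNRF2, 2.48-fold (1.31 ± 0.069, edgeR adjusted p = 5.4e-14). HSPA5, the ER chaperone BiP, measured 1307, 1115 and 1238 CPM in shNC and 1965, 1901 and 1811 CPM in shNRF2 (0.63 ± 0.051). SEL1L, a scaffold of ER-associated degradation, was 173 ± 6.31 CPM in shNC and 257 ± 2.60 CPM in shNRF2 (0.57 ± 0.046). Cytosolic and ER chaperone genes thus changed in opposite directions in the same libraries. In the autophagy and lysosome list 10 of 24 genes fell and 3 rose (median -0.11), with 1 riser without shNC replicate 3 or without shNRF2 replicate 1 or 2. The cathepsin genes CTSL (884 ± 20.4 CPM in shNC and 502 ± 19.6 CPM in shNRF2, -0.82 ± 0.050) and CTSB (-0.62 ± 0.045), both lysosomal proteases, were among the fallers beside SQSTM1.

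Proliferation genes that changed were mostly higher. In the replication and S phase list 11 of 27 rose and 2 fell (median 0.14), and in the mitosis list 10 of 23 rose and 1 fell (median 0.20). The replication list had 1 faller without shNC replicate 2 or 3, without shNRF2 replicate 1 or 2, with library totals, with limma on FPKM and without a filter. MCM2, of the replicative helicase, measured 41.5, 39.6 and 41.2 CPM in shNC and 64.1, 58.9 and 53.8 CPM in shNRF2 (0.53 ± 0.080), and CDC45 rose by 0.52. CENPF, a kinetochore protein gene, was 422, 407 and 422 CPM in shNC and 573, 569.8 and 659 CPM in shNRF2 (0.53 ± 0.052, edgeR adjusted p = 1.3e-08). The proliferation marker MKI67 rose by 0.38, and TOP2A, topoisomerase of dividing cells, by 0.41. CCNE1, cyclin E1, and AURKA, a spindle kinase, fell instead (-0.32 ± 0.075 and -0.26 ± 0.067).

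In the list of platinum transport and DNA repair genes, of interest because the cells were held in cisplatin, 12 of 21 rose and none fell (median 0.29). These are long genes: all genes of like length had a median of 0.064, and with the length trend removed 8 were called higher and 1 lower. Also 1 fell without shNC replicate 1 or without shNRF2 replicate 2 or 3. The Fanconi anaemia genes FANCA (20.4 ± 3.34 CPM in shNC and 33.4 ± 2.10 CPM in shNRF2, 0.72 ± 0.096), FANCD2 (0.71 ± 0.11) and FANCI (0.57 ± 0.068) had the smallest adjusted p-values among the risers. Their products act in the repair of DNA crosslinks. The p53 target list was mixed, with 5 of 24 higher and 9 lower (median -0.14), and its risers numbered 3 without shNC replicate 2 or without shNRF2 replicate 1. TP53I3, a quinone oxidoreductase-like gene, was 56.4, 60.3 and 57.3 CPM in shNC and 31.1, 34.5 and 36.9 CPM in shNRF2 (-0.77 ± 0.069), CCNG1 fell by 0.53 and GADD45A by 0.46. In the BCL2 family 3 of 12 fell and none rose. Over all tested genes 18.2% were called higher and 19.3% lower, so the p53 risers and the BCL2 fallers stood near those shares. MT2A, a metallothionein that binds heavy metals, was the 1 riser of 2 tested metallothionein genes, at 146, 162 and 163 CPM in shNC and 289, 296 and 307 CPM in shNRF2 (0.92 ± 0.052, edgeR adjusted p = 2.3e-13).

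The list of laminin, hemidesmosome and integrin genes, many of which anchor epithelia to the basement membrane, was split, with 8 of 20 higher and 7 lower. Its median was -0.043 and its range -2.58 to 1.87. These are long genes, and all genes of like length had a median of 0.066. With the length trend removed 6 were called higher and 9 lower (median -0.16). LAMB3, the beta 3 chain of laminin 332, measured 268, 254 and 261 CPM in shNC and 139, 124 and 119 CPM in shNRF2 (-1.03 ± 0.060). COL17A1, of the hemidesmosome, was 27.7, 27.4 and 28.9 CPM in shNC and 13.4, 9.86 and 14.1 CPM in shNRF2 (-1.17 ± 0.11). LAMA5 rose by 0.66, LAMB1 by 0.47 and ITGB4, the hemidesmosomal integrin subunit, by 0.61. In the collagen and matrix turnover list 5 of 18 rose and 4 fell (median 0.054), with limma on FPKM leaving 2 fallers. Over all tested genes 18.2% rose and 19.3% fell. COL5A1, a fibrillar collagen chain, measured 57.6, 52.5 and 63.0 CPM in shNC and 176, 171 and 155 CPM in shNRF2 (1.54 ± 0.073, edgeR adjusted p = 7.1e-15), COL12A1 rose by 1.01 and COL4A1 by 0.76, while MMP7, matrilysin, fell by 0.99.

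Epithelial and mesenchymal markers gave no single direction, and their counts stand beside 18.2% higher and 19.3% lower over all tested genes. CDH1, E-cadherin, measured 31.0, 31.8 and 35.9 CPM in shNC and 70.3, 62.7 and 57.4 CPM in shNRF2 (0.95 ± 0.079, edgeR adjusted p = 5.0e-10). It was 1 of 2 risers, beside 3 fallers, among the 14 tested of 20 epithelial genes (median -0.0028), and 6 of the 20 averaged under 1 CPM. With library totals or limma on FPKM 5 rose and none fell, and none fell without shNC replicate 1 or without shNRF2 replicate 2 or 3, and 1 without shNC replicate 3. Among 11 tested mesenchymal genes 2 rose and 3 fell (median -0.12, range -0.88 to 3.34). FN1, fibronectin, was 665, 574 and 688 CPM in shNC and 1434, 1326 and 1181 CPM in shNRF2 (1.03 ± 0.075), while VIM, vimentin, fell by 0.23. The level of CDH2, N-cadherin, lay between 4.21 and 5.32 CPM in shNC and between 2.45 and 2.69 CPM in shNRF2.

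YAP and TEAD targets rose in 8 of 18 cases and fell in 5 (median 0.21). CCN2, the connective tissue growth factor gene, was 17.7, 20.1 and 17.7 CPM in shNC and 31.9, 30.4 and 28.3 CPM in shNRF2 (0.70 ± 0.093), while ANKRD1 fell, at 107, 119 and 112 CPM in shNC and 56.1, 59.5 and 59.2 CPM in shNRF2 (-0.95 ± 0.056), as did AMOTL1 (-0.76 ± 0.055). Both CCN2 and ANKRD1 are widely used reporters of this pathway, and they moved in opposite directions. In the TGF-beta list 5 of 14 rose and 4 fell, with INHBA, the activin A chain, falling from a range of 2.27 to 3.29 CPM to a range of 0.153 to 0.513 CPM.

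Immediate early and ERK feedback genes rose in 11 of 23 cases and fell in 3 (median 0.24). EGR1, a fast-responding zinc finger factor, measured 53.7, 49.9 and 57.8 CPM in shNC and 127, 133 and 108 CPM in shNRF2 (1.19 ± 0.072, edgeR adjusted p = 1.0e-12), and FOSB rose by 0.75. FOSL1, another FOS family gene, fell by 0.80 and DUSP5, a phosphatase of ERK, by 0.73. NF-kB and inflammatory genes rose in 9 of 24 cases and fell in 5 (median 0.14). LCN2, the iron-binding lipocalin 2, was 34.6, 34.5 and 33.8 CPM in shNC and 77.0, 80.0 and 77.4 CPM in shNRF2 (1.19 ± 0.058, edgeR adjusted p = 1.2e-14), CXCL1, a neutrophil chemokine, rose by 0.85, and IL32 fell by 0.97. Interferon-stimulated genes rose in 4 of 19 cases and fell in 7 (median -0.016), where 18.2% of all tested genes rose and 19.3% fell. IFIT3 (768 ± 34.2 CPM in shNC and 547 ± 25.6 CPM in shNRF2, -0.49 ± 0.046) and IFI44 (-0.83 ± 0.073) fell, whereas the signal transducer gene STAT2 (0.92 ± 0.11) rose.

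Metabolic lists moved modestly, and several of their counts lay near the shares over all tested genes, 18.2% higher and 19.3% lower. Glycolysis and hypoxia genes fell in 13 of 22 cases and rose in 3 (median -0.25). HIF1A, the hypoxia factor, rose, at 289.5, 281 and 293 CPM in shNC and 477, 499 and 524 CPM in shNRF2 (0.80 ± 0.045, edgeR adjusted p = 2.5e-13), while EGLN3, a prolyl hydroxylase that marks it for destruction and is its target, measured 16.6, 17.9 and 17.7 CPM in shNC and 3.66, 3.13 and 3.52 CPM in shNRF2 (-2.34 ± 0.14, edgeR adjusted p = 9.0e-13). TPI1 and PKM, both glycolytic enzymes, fell by 0.46 and 0.36. Cholesterol synthesis and uptake genes fell in 9 of 25 cases and rose in 3 (median -0.18), with HMGCS1 at -0.50 ± 0.059 and SQLE at -0.65 ± 0.11. Among 13 fatty acid genes 3 rose and 4 fell (median -0.030), the risers including SREBF1 (0.79 ± 0.11), and 1 fell with limma on FPKM and 2 without shNC replicate 3. In the ferroptosis control list 4 of 16 rose and 5 fell (median -0.059), and SLC40A1, the iron exporter ferroportin, measured 17.2, 21.5 and 18.7 CPM in shNC and 7.44, 7.49 and 6.96 CPM in shNRF2 (-1.39 ± 0.12). Of 14 nucleotide and amidotransferase genes 4 rose and 4 fell, CTPS1 (0.58 ± 0.046) among the risers, but the fallers numbered 1 or 2 with library totals, with limma on FPKM, without a filter, with the compared groups alone and without any 1 of 4 libraries (shNC replicates 1 and 3, shNRF2 replicates 1 and 2). The risers numbered 2 without shNC replicate 3 and with the length trend removed, and 1 without shNRF2 replicate 2. Of 13 small RNA pathway genes 5 rose and none fell (median 0.12), but 1 rose with the length trend removed or without shNRF2 replicate 2, and 2 or 3 without shNC replicate 3 or without shNRF2 replicate 1 or 3. In that list 1 fell without shNC replicate 1, with DESeq2 size factors and with the length trend removed.

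The same pair of lines under 4 µM GNA gave the hairpin difference again, with fold changes from 6 other libraries. The estimate of spread behind the p-values was shared, and with the compared groups alone 2471 genes were higher and 2673 lower in DMSO. There 2054 genes (14.0%) were called higher and 2048 (14.0%) lower in shNRF2. Of the 2668 genes higher in DMSO 1241 (46.5%) were called higher under GNA and 25 lower, and 88.2% had the same sign. Of the 2825 genes lower in DMSO 1427 (50.5%) were called lower under GNA and 88 higher, and 86.1% had the same sign. Among genes not called in DMSO 63.2% had the same sign. Genes that fell at least 2-fold in DMSO were called lower under GNA in 244 of 336 cases (72.6%), and genes that rose at least 2-fold were called higher in 172 of 360 (47.8%). The difference between the hairpin effects was itself called for 1082 genes (7.40%), 569 with a higher value under GNA and 513 with a lower one. Without shNC GNA replicate 2 the lower count was 336, and with limma on log2(FPKM + 0.1) or log2(FPKM + 1) the higher count was 283 or 306.

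Of the 66 NRF2 targets 50 were lower and 3 higher under GNA (median -0.48), and 46 of the 49 that fell in DMSO were called lower there too. Among those called in DMSO the sign changed for ABCC4 alone, at 0.30 in DMSO and -0.14 under GNA (difference -0.44, edgeR adjusted p = 0.0015), and the median of the 6 efflux genes went from 0.045 to -0.13. AKR1B10 was at -1.94 in DMSO and -1.95 under GNA, GPX2 at -1.54 and -1.52, and PTGR1 at -1.40 and -1.41. HMOX1 differed more, at -1.42 in DMSO and -0.23 under GNA, and the difference was called (1.19, edgeR adjusted p = 6.4e-08). SQSTM1 behaved likewise, at -1.26 and -0.33 (difference 0.93, edgeR adjusted p = 1.4e-10). GCLC went from -0.042 to -0.43 (difference -0.39, edgeR adjusted p = 0.011). By list, the difference was called for 2 of 14 quinone and carbonyl, 2 of 12 glutathione and 0 of 6 thioredoxin genes. It was called for 3 of 6 NADPH, 3 of 8 heme and iron, 2 of 6 efflux and 3 of 14 other targets. Over all tested genes 7.40% had a called difference.

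Heat shock genes reversed. Of the 28 tested, 24 were higher in shNRF2 under GNA and 1 lower (median 0.38), and the difference between treatments was called, upward, for 24. HSPA1A was at -0.95 in DMSO and 2.16 under GNA (edgeR adjusted p = 1.3e-18 for the difference). The proteasome list had a median of 0.060 under GNA against -0.28 in DMSO, and 20 of its 30 differences were called upward. Ribosomal protein genes were lower in 14 of 30 cases under GNA (median -0.18), and ER chaperone genes higher in 16 of 20 and lower in 1 (median 0.36). Of the 20 ER differences 5 were called, 2 upward and 3 downward, against 7.40% of all tested genes. The mitosis list had 6 genes lower and none higher under GNA (median -0.16), with 11 differences called downward. YAP and TEAD targets had 1 higher and 11 lower, and CCN2 went from 0.70 to -0.79 (difference -1.49, edgeR adjusted p = 3.2e-08). MYH14, among the largest falls in DMSO, was at -0.39 under GNA, whereas MAP2 (-4.07) and CES1 (-4.72) stayed far lower.

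**Figure D5:**
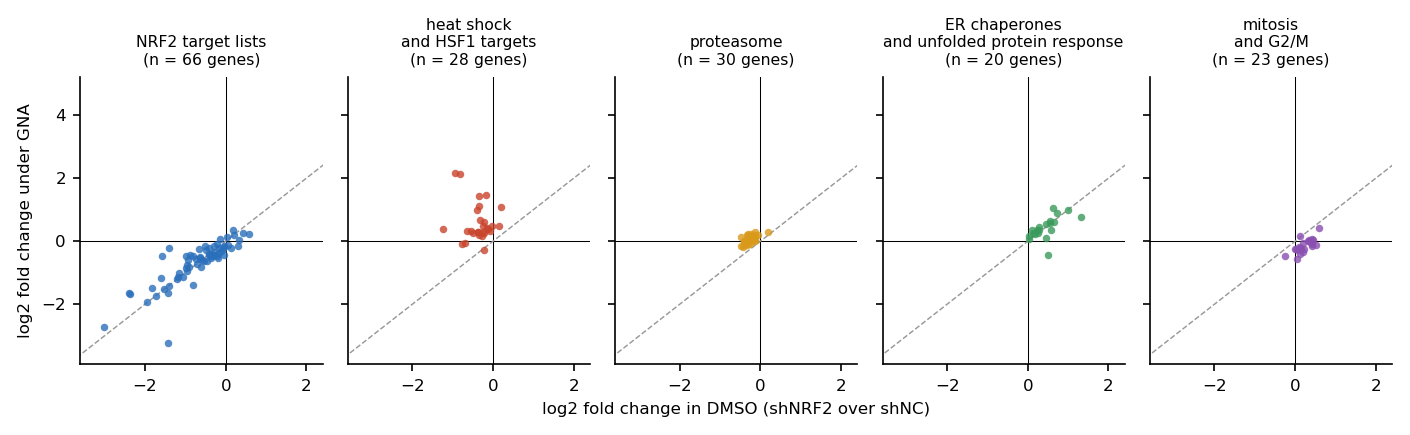
Log2 fold change of shNRF2 over shNC in DMSO (horizontal) and under GNA (vertical) for tested members of 5 sets of genes; each dot is a gene and the dashed line marks equal values. Most NRF2 targets lie below 0 and most ER chaperone genes above 0 on both axes. Not all of them lie on the line, with HMOX1 and HERPUD1 among those off it. Most heat shock genes lie left of and above 0, and most mitosis genes lie right of 0 in DMSO and below 0 under GNA.

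Along the genome, chromosome medians over 13589 tested genes with a position ran from -0.075 on chromosome 8 to 0.049 on chromosome 17. No chromosome median was thus shifted by as much as 0.1. Chromosome 8 had the largest share of genes called lower, 27.7% of 465, with 14.0% higher, against 19.3% and 18.2% over all tested genes. Its median under GNA was -0.079. What set this skew was not tested. The 10 tested genes nearest to KEAP1 had a median of -0.020. AP1M2, a clathrin adaptor subunit gene, was the lowest of them at -1.62 (edgeR adjusted p = 7.6e-11); it was picked out after its value was seen. The 10 tested genes nearest to NFE2L2 had a median of 0.064.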

How the data were processed

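Total RNA of 12 A549/DDP libraries was sequenced, of which 6 are compared here; single-cell data named in the series were not analysed here. The authors deposited raw counts per gene and FPKM values for 61510 genes. Build GRCh38 and DESeq2 are named in the submitters' processing notes, with no role or version; which aligner, counting tool, strand setting and annotation release were used is not given in the sources used here. Overlapping and antisense genes therefore cannot be separated.

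Genes were kept by filterByExpr on the 6 DMSO libraries (minimum count 10, minimum total 15). Counts were TMM-scaled and fitted with edgeR 4.0.16 in R 4.3.3, with 1 coefficient for each of 4 groups over all 12 libraries and 8 residual degrees of freedom. P-values were adjusted by Benjamini-Hochberg over all tested genes. With 3 libraries a side, the smallest p an exact permutation test allows is 0.1. The scripts were tested on simulated data. DESeq2 1.42.0 and limma 3.58.1, the latter on log2 of the deposited FPKM values, served as alternatives.

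The members, the 40 gene lists (719 genes) and the promoter motif were chosen with earlier results of these data known. Named genes were fixed regulators and targets, the 12 largest rises and falls with at least 5 CPM and no overlap, and, in each list, at most 4 called genes in either direction. Of 251 genes under this rule, those in the text were chosen after their values were seen, and a few are not reported here. 2 list names, DDX58 and FSP1, are absent from the deposited genes under those symbols.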

Additional observations from a re-analysis of the deposited data

Results flagged for a closer look

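The hairpin effect (log2 fold change of shNRF2 over shNC) differed between GNA and DMSO, by edgeR's test of the difference itself (adjusted p under 0.05 over all 14624 tested genes), for 62 of the genes named in the report. The values below are the effect under GNA minus that in DMSO, on the log2 scale. Dixon's test for a single outlying library was not run on groups of 3.

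Of NRF2 regulators and targets, the difference was above 0 for HMOX1 (1.19), SQSTM1 (0.93), FTL (0.50), BLVRB (0.45), MAFG (0.40), IDH1 (0.37) and ME1 (0.35). It was below 0 for ABCC4 (-0.44), GCLC (-0.39), ABCC3 (-0.36), SLC7A11 (-0.35), NFE2L2 (-0.30), AKR1C2 (-0.29), NQO1 (-0.22) and PGD (-0.21).

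Heat shock genes gave HSPA1A (3.11), HSPA1B (2.94), CHORDC1 (0.97), HSPB1 (0.90), DNAJA1 (0.87) and HSPA8 (0.77). Proteasome and ribosomal genes gave PSMD11 (0.59), PSMA4 (0.32) and RPL27 (0.34), and MT-ND5 gave -0.44.

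Stress response and ER genes were mostly below 0, at -0.74 for PCK2, -0.71 for PHGDH, -0.65 for PSAT1, -0.55 for ALDH1L2, -0.54 for HERPUD1, -0.41 for NUPR1, -0.25 for AARS1 and -0.22 for SEL1L; HSPA5 was at 0.42. Proliferation and repair genes were below 0 too, at -0.64 for CENPF, -0.63 for FANCI, -0.57 for TOP2A, -0.53 for FANCD2, -0.44 for MKI67, -0.43 for MCM2 and -0.35 for CDC45. GADD45A was at 0.32.

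Among matrix, junction and signalling genes ITGB4 was at -0.31, COL12A1 at -0.44, CDH1 at -0.39, CCN2 at -1.49, ANKRD1 at 0.55, INHBA at 2.15, EGR1 at -1.0, FOSB at -0.98, LCN2 at 0.60 and IL32 at 0.83. In metabolism and transport HIF1A was at -0.33, SQLE at 0.54, SREBF1 at -0.58, CTSL at 0.27 and ABCA12 at -0.59. Of the largest changes MYH14 was at 2.25, IGFN1 at 1.88, CHGB at -0.39, ULBP1 at -1.07 and AKAP17A, with its scattered libraries, at -3.56.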

How the results depend on the processing

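The alternatives were DESeq2 size factors or library totals in edgeR, DESeq2, no filter, 1 CPM in 3 libraries, a replicate block, limma on log2(FPKM + 1) or log2(FPKM + 0.1), a fit of the compared groups alone, each library left out, and the length trend removed, the last added after seeing the data. Over the 16 for the DMSO comparison, both counts of calls stayed within 1.5 times of 2668 and 2825, and of 2320 values for 145 named genes 2309 kept direction and side of the threshold, 9 lost the call, 2 gained it and none reversed. The genes concerned are named in the report. Leaving out a library gave 2166 to 2590 genes higher and 2341 to 2835 lower in DMSO, and 1656 to 1791 higher and 1703 to 1831 lower under GNA. For the difference of the effects it gave 388 to 784 higher and 336 to 698 lower, with 336 without shNC GNA replicate 2. The difference counted 283 genes higher with limma on log2(FPKM + 0.1) and 306 on log2(FPKM + 1), against 569; the cause was not tested. With fewer than 3 libraries in a group, the spread is pooled over the fit.

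Replicate numbers did not pair the libraries: over 18 same-numbered pairs from different groups, the residual correlations ran from -0.057 to 0.024, none over 0.1. With the number as a block, 2604 genes were higher and 2749 lower in DMSO. Depth limits genes of a few counts, such as most leukocyte markers. SRXN1 was low too, at a few CPM.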
